A study of Solanum lycopersicum with 8 samples.

Results

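The enzymes described here are 3 steps of jasmonate synthesis and 1 step of jasmonate turnover in tomato (Solanum lycopersicum) leaves: loxD (lipoxygenase D), aos (allene oxide synthase), AOC (allene oxide cyclase) and LOC101263302 (annotated as cytochrome P450 94B3-like). They were taken by symbol from the deposited count table, which gave 5 transcripts of 4 genes among 45845 transcripts of 29080 genes. The 4 genes were chosen by measured values of these same libraries, their fold changes between tunicamycin and control leaves and between the times, so every difference of theirs below is a description, given with a standard error and no test. Tunicamycin is an antibiotic that blocks N-linked glycosylation in the endoplasmic reticulum (ER) and is used to impose ER stress. The groups were tunicamycin leaves at 2 h, control leaves at 2 h, tunicamycin leaves at 6 h and control leaves at 6 h, with 2 libraries each and 8 in all. The labels call the libraries of a group biological replicates without saying whether they came from separate plants, and give neither a cultivar, a tunicamycin dose nor the vehicle of the controls. The spread and the p-values therefore measure the difference between these libraries.

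Jasmonates are lipid hormones that plants make from linolenic acid released from chloroplast membranes. A lipoxygenase adds oxygen to the fatty acid, allene oxide synthase and allene oxide cyclase turn the product into oxophytodienoic acid (OPDA), and reduction and chain shortening in peroxisomes then give jasmonic acid, whose isoleucine conjugate is the active hormone. In leaves the pathway is best known for the response to wounding and insect feeding. The active hormone raises transcripts of its own synthesis enzymes and of the JAZ repressors. Some cytochromes P450 of the 94 family oxidise the conjugate and so end the signal.

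Totals per library ran from 4689769 to 122784850 counts, and in each group 1 library was 5.49 to 9.98 times as deep as the other. Replicate 1 was the deeper one in both tunicamycin groups, replicate 2 in both control groups. Below, values of a group are given for replicate 1 and then replicate 2, as CPM, in which counts are set relative to the TMM-scaled total of their library. Transcripts of 38 leaf photosynthesis genes summed to 27076 to 57277 CPM in tunicamycin libraries and 34571 to 43541 CPM in control libraries, the ranges overlapping, so the tissue label fitted its markers. Transcripts of 18 genes of the ER stress response summed to 1368 to 1684 CPM in tunicamycin libraries and 966 to 1809 CPM in control libraries, and none of the 21 transcripts of this list that could be tested was called in edgeR at either time. At 2 h, 14 of the 21 were lower in both tunicamycin libraries (median log2 -0.40), against 18.8% of all 34483 transcripts tested. Only 1 was higher in both, against 19.0%. At 6 h none was lower in both (median 0.13), against 12.5%, and 5 were higher in both, against 13.0%. The log2 fold changes of the 21 ran from -2.52 to 0.83 at 2 h and from -0.68 to 4.17 at 6 h. The part of these shifts in the enzymes' values was not tested. In whole leaves, fewer cells of a type and less RNA per cell cannot be told apart.

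Transcripts of loxD, aos and LOC101263302 were lower in tunicamycin than in control leaves at 2 h and at 6 h, with no overlap between the libraries at either time. AOC was as clearly separated at 2 h, and its libraries overlapped at 6 h. At 2 h, 5 of 5 transcripts had both tunicamycin libraries below both control libraries, as had 18.8% of all 34483 transcripts tested. At 6 h, 3 of 5 did, against 12.5% of all transcripts. The choice of the genes fixes these counts, and nothing is read from them.

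**Figure D1:**
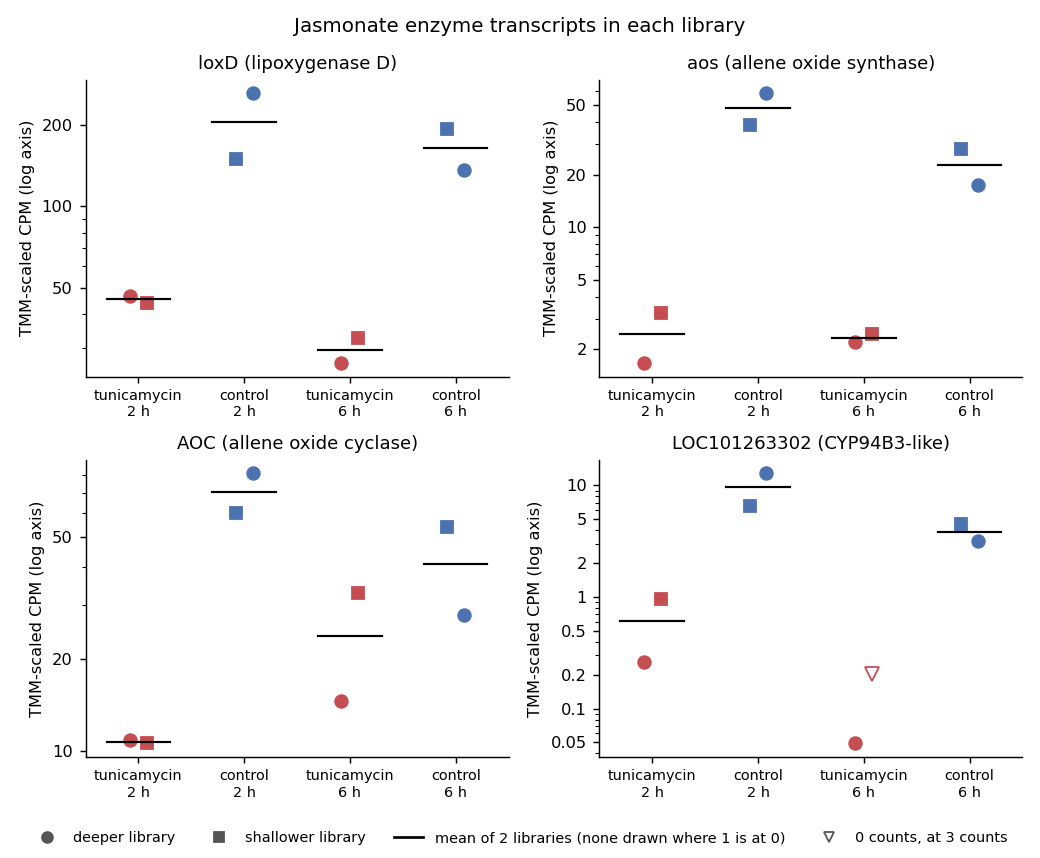
Abundance of loxD, aos, AOC and LOC101263302 in each of the 8 libraries, in TMM-scaled CPM on log axes. Red marks tunicamycin and blue control libraries, circles the deeper and squares the shallower library of each group, and black lines the means of 2 libraries; the open triangle stands at the level of 3 counts for a library with 0 counts. Tunicamycin points lie below control points of the same time in every panel except AOC at 6 h, where 32.8 CPM in a tunicamycin library stands above 27.9 CPM in a control library.

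loxD encodes the lipoxygenase that supplies the oxygenated fatty acid for jasmonate in wounded tomato leaves. Its transcript (NM_001320292.1) stood at 46.7 and 44.1 CPM in tunicamycin leaves at 2 h, against 149 and 262 CPM in control leaves at 2 h. The 6 h values were 26.3 and 32.6 CPM in tunicamycin leaves, against 193 and 136 CPM in control leaves. The tunicamycin libraries lay close together at each time, all 4 below every control library, and the wider spread was among the controls. The log2 fold change was -2.18 ± 0.39 (SE) at 2 h and -2.48 ± 0.39 at 6 h. Between the deeper libraries alone it was -2.49 at 2 h and -2.37 at 6 h, and between the shallower ones -1.76 and -2.56. The tunicamycin effect at 6 h minus that at 2 h was -0.30 ± 0.53 on the log2 scale, and 0.04 without control 2 h replicate 1, so its sign rested on that library.

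aos encodes the cytochrome P450 that converts the lipoxygenase product into an allene oxide, the first step committed to the jasmonate branch. Its transcript (NM_001247904.2) had 76 and 20 counts in tunicamycin leaves at 2 h, against 188 and 2766 counts in control leaves at 2 h. In CPM this was 1.67 and 3.22 in tunicamycin leaves, against 38.2 and 58.4 in control leaves. Both tunicamycin libraries lay far below both controls, and the deeper tunicamycin library had less aos than the shallower one. At 6 h the counts were 224 and 36 in tunicamycin leaves, against 557 and 2220 in control leaves. These gave 2.19 and 2.46 CPM in tunicamycin leaves and 28.0 and 17.5 CPM in control leaves, again without overlap. The log2 fold change was -4.44 ± 0.45 at 2 h, where the deeper pair of libraries gave -5.09 and the shallower pair -3.55. It was -3.30 ± 0.41 at 6 h, where the deeper pair gave -2.97 and the shallower pair -3.49. The fold change at 6 h thus lay closer to 0 than that at 2 h, by 1.14 ± 0.56 on the log2 scale, and by 0.63 without tunicamycin 2 h replicate 1. The tunicamycin means were close at both times, 2.33 ± 0.187 CPM at 6 h and 2.44 ± 1.09 CPM at 2 h (SD, n = 2 each), while the control mean was 22.8 ± 7.41 CPM at 6 h and 48.3 ± 14.3 CPM at 2 h.

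AOC encodes the cyclase that closes the ring of OPDA and fixes its stereochemistry. Its reference transcript (NM_001247090.2) stood at 10.9 and 10.6 CPM in tunicamycin leaves at 2 h, against 60.2 and 80.8 CPM in control leaves at 2 h. The 6 h levels were 14.6 and 32.8 CPM in tunicamycin leaves, against 53.9 and 27.9 CPM in control leaves. At 2 h the tunicamycin libraries were nearly equal and well below the controls; at 6 h the shallower tunicamycin library was above the deeper control library. The log2 fold change was -2.71 ± 0.44 at 2 h and -0.79 ± 0.41 at 6 h, and the effect at 6 h minus that at 2 h was 1.92 ± 0.59, and 1.23 without tunicamycin 6 h replicate 2. Leaving out single libraries moved the 6 h value between -1.48, without tunicamycin 6 h replicate 2, and -0.24, without control 6 h replicate 1. The second deposited transcript of AOC, variant X1 (XM_019211978.2), held 84.8% to 97.6% as many counts as the reference transcript in the 8 libraries. Its log2 fold changes were -2.64 ± 0.42 at 2 h and -0.83 ± 0.40 at 6 h. The variants may share most of their reads, so they are not independent measurements.

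LOC101263302 is annotated as a cytochrome P450 94B3-like protein. In Arabidopsis, CYP94B3 hydroxylates the isoleucine conjugate of jasmonic acid and lowers its activity, a role that is assigned to the tomato gene here only by its description. Its transcript (XM_004236284.4) had 12 and 6 counts in tunicamycin leaves at 2 h, against 32 and 606 counts in control leaves at 2 h. At 6 h it had 5 and 0 counts in tunicamycin leaves, against 90 and 400 counts in control leaves. It was thus sparse in all 4 tunicamycin libraries and passed the filter on low counts through the control libraries. Scaled to CPM, it stood at 0.264 and 0.965 in tunicamycin leaves and at 6.51 and 12.8 in control leaves at 2 h. At 6 h it stood at 0.0490 and 0 CPM in tunicamycin leaves, where 3 counts in the library at 0 would be 0.205 CPM, and at 4.53 and 3.16 CPM in control leaves. The log2 fold change at 2 h was -4.38 ± 0.76, at -5.39 in the deeper pair and -2.70 in the shallower pair. At 6 h it was -6.48 ± 0.88 and rested on 5 counts in tunicamycin 6 h replicate 1. Without that library it was -10.18, a value set against a library at 0 that gives no bound. The effect at 6 h minus that at 2 h was -2.10 ± 1.12, and -5.77 without the same library.

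**Figure D2:**
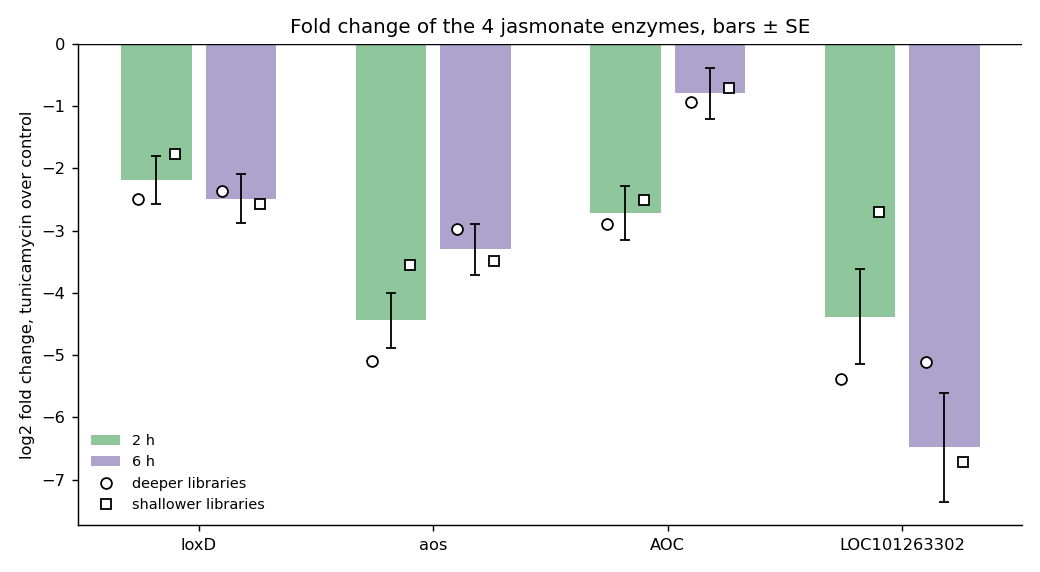
Log2 fold change, tunicamycin over control, of the 4 enzymes at 2 h (green) and at 6 h (purple), with bars for the value over all libraries and error bars of 1 SE. Circles compare the deeper and squares the shallower libraries of each pair, computed from log2 CPM with a prior count of 2, so that the square of LOC101263302 at 6 h, whose tunicamycin library is at 0, depends on that prior count. All bars lie below 0, from -0.79 for AOC at 6 h to -6.48 for LOC101263302 at 6 h.

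Within an arm the later harvest also differed. In tunicamycin leaves, loxD was lower at 6 h than at 2 h (log2 -0.62 ± 0.38) without overlap of the libraries, and LOC101263302 likewise (-3.46 ± 0.96, but -7.15 without tunicamycin 6 h replicate 1). AOC was higher at 6 h in both libraries (1.13 ± 0.42, but 0.44 without tunicamycin 6 h replicate 2), whereas aos differed by 0.05 ± 0.42, with overlapping libraries and a sign that held in 14 of 18 refits. Both tunicamycin 6 h libraries lay below both tunicamycin 2 h libraries for 2 of 5 transcripts, against 19.3% of all transcripts, and above them for the AOC transcripts, as for 22.3% of all. In control leaves all 4 genes had lower means at 6 h than at 2 h, with log2 fold changes of -0.32 ± 0.37 in loxD, -1.10 ± 0.37 in aos, -0.79 ± 0.41 in AOC and -1.36 ± 0.61 in LOC101263302. Of the 5 transcripts, 4 had both control 6 h libraries below both control 2 h libraries, against 16.1% of all, and loxD overlapped. Without control 2 h replicate 2 the value of loxD was 0.10 and that of LOC101263302 -0.81, and without control 6 h replicate 2 or replicate 1 that of AOC was -0.39 or -1.38. These comparisons share libraries with those of tunicamycin against control, so their values are not independent of each other.

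Across the 4 groups, the means of loxD, aos and LOC101263302 ran in 1 order, highest in control leaves at 2 h, then control 6 h, tunicamycin 2 h and tunicamycin 6 h. In AOC the last places were exchanged, with tunicamycin 6 h (23.7 ± 12.9 CPM) above tunicamycin 2 h (10.8 ± 0.202 CPM). Some neighbours in these orders overlapped: both control groups of loxD, both tunicamycin groups of aos, and the tunicamycin and control groups of AOC at 6 h. In LOC101263302 no neighbouring groups overlapped, although its lower places rest on a few counts.

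By the usual threshold, an adjusted p under 0.05 in edgeR over all transcripts, 3 of the 5 transcripts were called lower at 2 h (aos and both of AOC), where 0.0435% of all transcripts were. At 6 h 3 of 5 were called lower (loxD, aos and LOC101263302), where 0.302% of all transcripts were. None of the 5 was called between the times in tunicamycin leaves (0.603% of all transcripts in either direction) or in control leaves (0.27%), or when the tunicamycin effects of both times were set against each other (0 of all transcripts, 761 of them at an unadjusted p under 0.05). The comparisons of tunicamycin with control and of the times were known when the genes were chosen, and nothing is read from these counts either. In the authors' deposited tables the log2 fold changes of loxD, aos, AOC and LOC101263302 were -2.18, -4.45, -2.71 and -4.45 at 2 h and -2.49, -3.31, -0.80 and -6.55 at 6 h.

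Tomato has a second allene oxide synthase gene, AOS2, whose product catalyses the same step. AOS2 stood at 10.7 and 5.47 CPM in tunicamycin leaves at 2 h, against 14.6 and 21.2 CPM in control leaves, and at 13.6 and 26.8 CPM in tunicamycin leaves at 6 h, against 21.5 and 12.2 CPM in control leaves. Its log2 fold change was -1.12 ± 0.44 at 2 h (edgeR, adjusted p = 0.608), where the libraries did not overlap, and 0.26 ± 0.43 at 6 h (edgeR, adjusted p = 1.00), where they did. Of the counts of both synthases, aos made up 13.5% (95% Wilson interval 10.9% to 16.5%) and 37.0% (25.4% to 50.4%) in tunicamycin leaves at 2 h, against 72.3% (66.6% to 77.4%) and 73.4% (71.9% to 74.8%) in control leaves at 2 h. At 6 h its share was 13.9% (12.3% to 15.7%) and 8.41% (6.14% to 11.4%) in tunicamycin leaves, against 56.6% (53.5% to 59.7%) and 58.9% (57.4% to 60.5%) in control leaves. aos thus held the larger part of the synthase counts in all 4 control libraries and the smaller part in all 4 tunicamycin libraries. The intervals cover counting error only, and the share includes aos, so it too is a description.

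**Figure D3:**
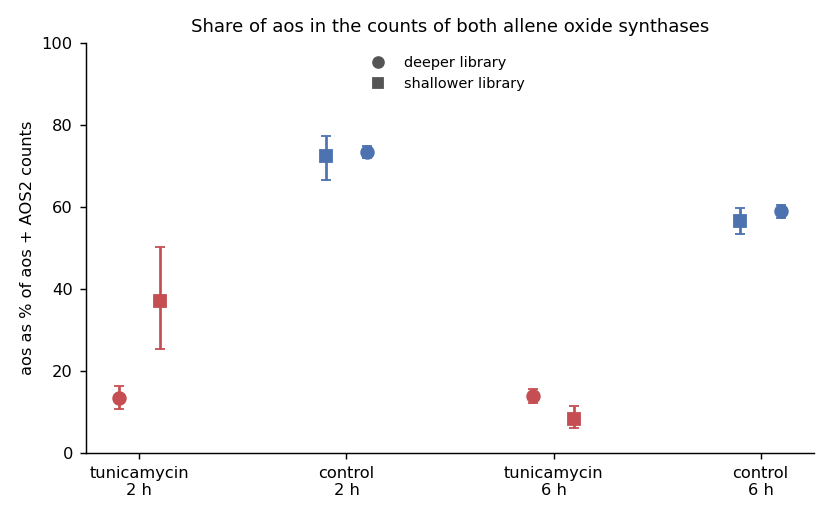
Share of aos in the summed counts of aos and AOS2 in each library, in percent, with 95% Wilson intervals for counting error. Red marks tunicamycin and blue control libraries, circles the deeper and squares the shallower ones; the tunicamycin libraries lie between 8.41% and 37.0% and the control libraries between 56.6% and 73.4%.

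The proportions between the enzymes also differed between the groups. For each 100 counts of AOC there were 15.3 and 30.3 counts of aos in tunicamycin leaves at 2 h, against 63.5 and 72.3 in control leaves at 2 h, and 15.1 and 7.48 in tunicamycin leaves at 6 h, against 52.0 and 62.9 in control leaves at 6 h. For each 100 counts of loxD there were 23.4 and 24.1 counts of AOC in tunicamycin leaves at 2 h, against 40.3 and 30.8 in control leaves. At 6 h there were 55.3 and 100.63 counts of AOC per 100 of loxD in tunicamycin leaves, against 27.9 and 20.5 in control leaves. The ratio of AOC to loxD was therefore below the controls at 2 h and above them at 6 h in both tunicamycin libraries, while that of aos to AOC was below the controls at both times. Each ratio is within a library, so scaling does not enter it. Transcript lengths were not used, so a ratio is compared between libraries and does not say which gene was the more abundant.

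LOC101263302 has close neighbours. In the RefSeq gene table of assembly SLM_r2.1, used for names and order only, LOC101263399, LOC101263598 and LOC101263302 follow one another on chromosome 3, and all are annotated as cytochrome P450 94B3-like. Such neighbours can be near-identical, so reads may have been divided among them, and their sum is given beside the single gene. Together they had 24 and 6 counts in tunicamycin leaves at 2 h, against 42 and 976 in control leaves, and 17 and 0 counts in tunicamycin leaves at 6 h, against 164 and 848 in control leaves. The sum was 0.527 and 0.965 CPM in tunicamycin leaves at 2 h, against 8.54 and 20.6 CPM in control leaves. For 6 h the sum came to 0.166 and 0 CPM in tunicamycin leaves, against 8.25 and 6.70 CPM in control leaves, so the sum was separated in the same way as LOC101263302 alone. Singly, LOC101263598 gave log2 fold changes of -4.88 ± 1.08 at 2 h (edgeR, adjusted p = 0.168) and -5.24 ± 1.06 at 6 h (edgeR, adjusted p = 0.0557). LOC101263399 gave -3.90 ± 1.36 (edgeR, adjusted p = 0.497) and -5.27 ± 1.45 (edgeR, adjusted p = 0.236). Neither passed the threshold, and both had 0 counts in the shallower tunicamycin library of each time. In the deeper ones at 2 h and 6 h, LOC101263598 had 8 and 10 counts and LOC101263399 had 4 and 2. Both genes thus passed the filter on low counts through the control libraries, and nothing is read from their p-values.

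Further cytochromes P450 of the 94 family were examined beside these. LOC101262587, annotated as 94B3 and placed on chromosome 2 in the same gene table, stood at 2.11 and 6.43 CPM in tunicamycin leaves at 2 h, against 0.407 and 2.15 CPM in control leaves. At neither time were its groups apart (log2 1.48 ± 0.78 and -0.04 ± 0.74; edgeR, adjusted p = 0.744 and 1.00). LOC101262529, annotated as 94C1, which in Arabidopsis oxidises the hydroxylated conjugate further, stood at 105 and 54.7 CPM in tunicamycin leaves at 2 h, against 59.4 and 146 CPM in control leaves. Later, at 6 h, it had 15.4 and 21.0 CPM in tunicamycin leaves, against 25.9 and 53.4 CPM in control leaves. Its log2 fold change was -0.37 ± 0.47 at 2 h and -1.13 ± 0.48 at 6 h (edgeR, adjusted p = 0.941 and 1.00), and 6 h against 2 h in tunicamycin leaves gave -2.14 ± 0.50 (edgeR, adjusted p = 0.0834). The differences between these genes and LOC101263302 were not tested.

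**Figure D4:**
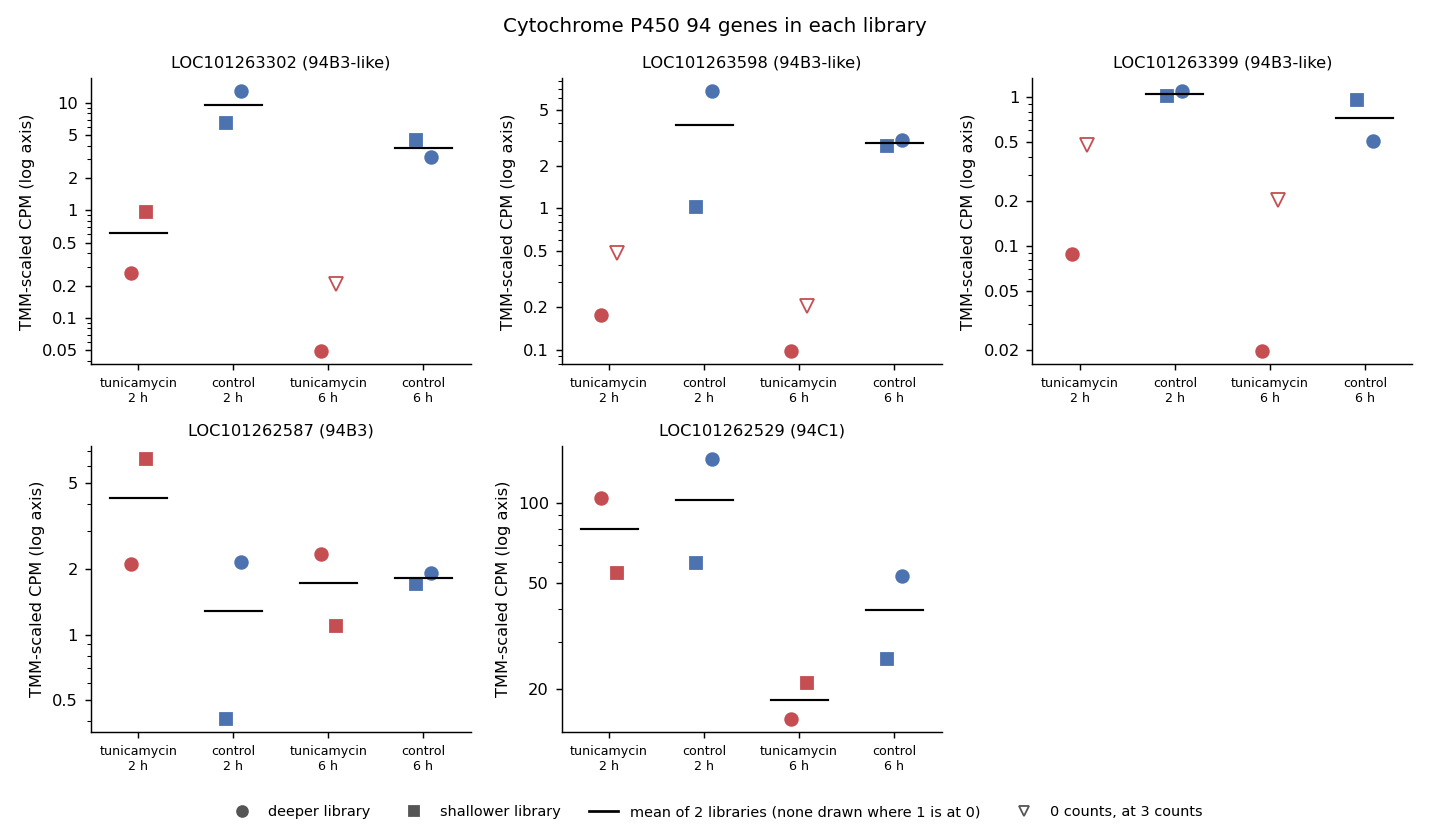
Abundance of 5 cytochrome P450 94 genes in each library, in TMM-scaled CPM on log axes. Red marks tunicamycin and blue control libraries, circles the deeper and squares the shallower ones, black lines the means of 2 libraries above 0, and open triangles the level of 3 counts where a library had 0. In the 3 neighbouring 94B3-like genes of the upper row each measured tunicamycin value above 0 lies below both control values of its time; in LOC101262587 the groups overlap at both times.

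The rest of the pathway was described with 8 lists matched on the deposited gene descriptions, without the 4 genes above. They hold 248 transcripts of 193 genes, of which 183 transcripts of 140 genes passed the filter on low counts. At 2 h, 2 of the 183 were called lower in tunicamycin than in control leaves, or 1.09%, and none was called higher. Of all transcripts, 0.0464% were called in either direction and 0.0029% were called higher. At 6 h, 6 of the 183 were called lower in tunicamycin than in control leaves, or 3.28%, and none was called higher. Of all transcripts, 0.322% were called in either direction and 0.0203% were called higher. The median log2 fold change of the 183 was -0.12 at 2 h and 0.07 at 6 h, against 0.03 and 0.03 over all transcripts tested. The medians hid a spread in both directions: the fold changes ran from -4.88 to 6.28 at 2 h and from -6.64 to 3.43 at 6 h. At 2 h, 52 of the 183 were lower in both tunicamycin libraries, against 18.8% of all transcripts, and 26 were higher in both, against 19.0%; 44 had an unadjusted p under 0.05, as had 2501 of the 34483. At 6 h, 32 were lower in both, against 12.5% of all, and 31 higher in both, against 13.0%; 15 had an unadjusted p under 0.05, as had 1403 of the 34483. The list calls at 2 h ended without control 2 h replicate 2 or either tunicamycin library of that time. Those at 6 h ended without tunicamycin 6 h replicate 1. Fewer were made at 6 h without replicate 2 of that group or without control 2 h replicate 2. Calls over all transcripts ended or grew fewer in each of these fits as well. Each such fit leaves 1 library in a group, and these changes are no result about the lists.

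**Figure D5:**
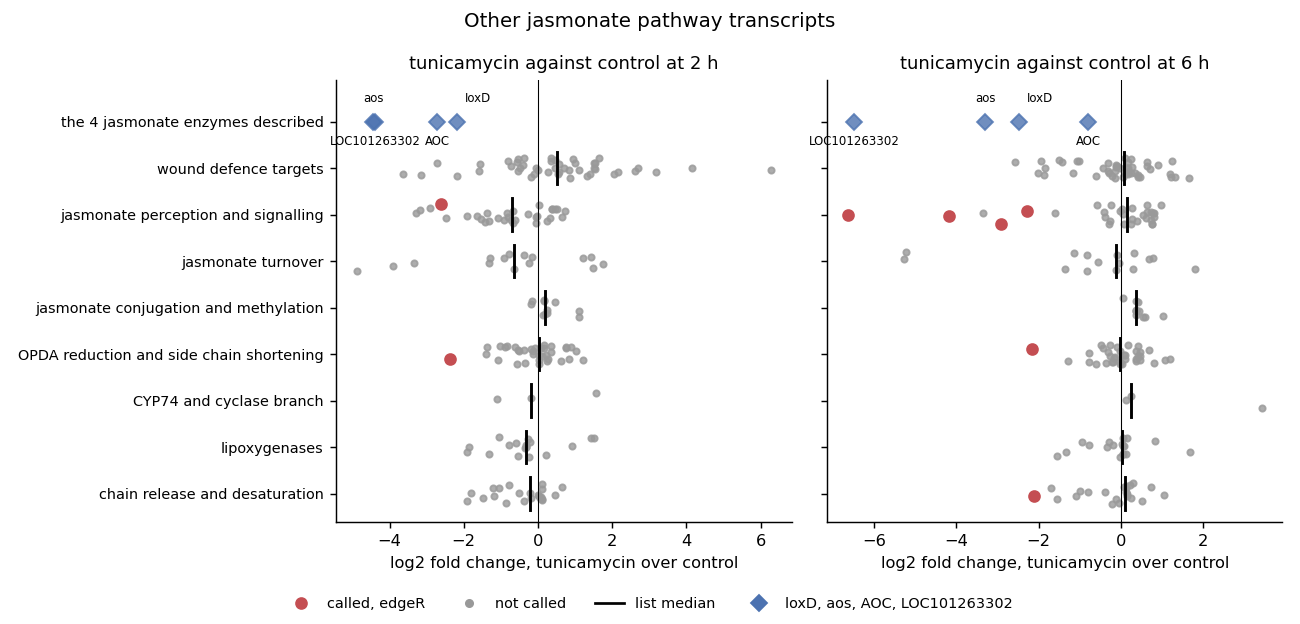
Log2 fold change, tunicamycin over control, of the tested transcripts of 8 jasmonate pathway lists at 2 h (left) and at 6 h (right), spread at random within a row for legibility. Red points were called in edgeR (adjusted p under 0.05), grey points were not, black bars are list medians, and blue diamonds in the top row are loxD, aos, AOC and LOC101263302. The list medians lie between -0.71 and 0.50 at 2 h and between -0.11 and 0.38 at 6 h.

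Among the steps before loxD, which release and desaturate fatty acids, none of 22 transcripts was called at 2 h (list medians -0.21 at 2 h and 0.09 at 6 h). At 6 h, 1 was called lower in tunicamycin leaves, where 0.322% of all transcripts were called. This was LOC101244514, a chloroplast phospholipase A1-Ibeta2-like lipase, at 7.93 and 6.42 CPM in tunicamycin leaves at 6 h, against 24.4 and 37.9 CPM in control leaves (log2 -2.11 ± 0.35; edgeR, adjusted p = 0.0189). It gave -1.22 ± 0.35 at 2 h (edgeR, adjusted p = 0.335). The lipases LOC101249701 and LOC101249094 gave -1.80 and -1.04 at 2 h and -0.98 and -1.68 at 6 h and did not pass.

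None of 18 other lipoxygenase transcripts was called at either time (medians -0.32 and 0.04), where 0.0464% and 0.322% of all transcripts were. LOC101263024, annotated as lipoxygenase 6 of the chloroplast, gave -1.33 ± 0.57 at 2 h and 0.15 ± 0.54 at 6 h. LOC101263535, annotated as a probable linoleate 9S-lipoxygenase, an enzyme type outside jasmonate synthesis, gave 1.51 ± 0.57 at 2 h with both tunicamycin libraries above both controls, and 0.04 ± 0.55 at 6 h. TomloxE gave -1.04 and -0.76 at 2 h and 6 h, and loxF, with at most 98 counts in a library, gave 1.42 and 1.67. Beside aos and AOC, the branch point list held 3 tested transcripts, none called. Hydroperoxide lyase (HPL), which takes the same substrate as allene oxide synthase towards leaf aldehydes, stood at 14.4 and 10.5 CPM in tunicamycin leaves at 2 h, against 11.2 and 16.7 CPM in control leaves, and at 20.5 and 24.4 CPM in tunicamycin leaves at 6 h, against 19.7 and 21.0 CPM in control leaves. Its libraries overlapped at both times (log2 -0.18 ± 0.33 and 0.14 ± 0.33; edgeR, adjusted p = 0.969 and 1.00). The divinyl ether synthase DES ranged from 0 to 1862 counts within tunicamycin leaves at 6 h, so its value there rests on 1 library.

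After AOC, 1 of 36 transcripts of OPDA reduction and side chain shortening was called lower in tunicamycin leaves at each time (medians 0.03 and -0.01). Of all transcripts, 0.0464% were called at 2 h and 0.322% at 6 h. The list transcript called was LOC101251665 both times, annotated as 4-coumarate--CoA ligase-like 5. In Arabidopsis the protein of that name activates a jasmonate precursor for chain shortening in peroxisomes, and the tomato gene is placed here by its description alone. It stood at 10.1 and 11.7 CPM in tunicamycin leaves at 2 h, against 38.9 and 72.1 CPM in control leaves (log2 -2.36 ± 0.35; edgeR, adjusted p = 0.0307). Tunicamycin leaves had 9.50 and 9.49 CPM at 6 h, against 41.1 and 43.8 CPM in control leaves (log2 -2.16 ± 0.34; edgeR, adjusted p = 0.0150). All 4 tunicamycin libraries lay within a narrow range below every control library.

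The OPDA reductase gene opr3 stood at 12.4 and 14.95 CPM in tunicamycin leaves at 2 h, against 24.0 and 45.7 CPM in control leaves, and at 15.4 and 18.6 CPM in tunicamycin leaves at 6 h, against 37.2 and 20.5 CPM in control leaves. Its tunicamycin libraries were below the controls at both times, but it did not pass (log2 -1.37 ± 0.39 and -0.76 ± 0.38; edgeR, adjusted p = 0.315 and 1.00). LOC101265227, a peroxisomal acyl-CoA oxidase of the kind that starts chain shortening, was the 1 transcript of the 183 called between the times in tunicamycin leaves, or 0.546%, where 0.603% of all transcripts were called. This share is near that of all transcripts and is no result about the list. The transcript stood at 38.1 and 22.9 CPM in tunicamycin leaves at 6 h and 126 and 102 CPM in tunicamycin leaves at 2 h, a log2 fold change of -1.90 ± 0.39 (edgeR, adjusted p = 0.0457). The call ended without any 1 of the 4 tunicamycin libraries and without either control 2 h library. Control leaves had 37.0 and 60.6 CPM of it at 2 h, below both tunicamycin libraries of that time (log2 1.22 ± 0.39, tunicamycin over control; edgeR, adjusted p = 0.431).

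None of 11 transcripts for jasmonate conjugation and methylation was called (medians 0.18 at 2 h and 0.38 at 6 h). Of all transcripts, 0.0464% and 0.322% were called at these times. The list takes in a protein phosphatase methylesterase by its description. LOC101251682, annotated as JAR1, the enzyme that joins jasmonic acid to isoleucine, gave -0.18 ± 0.31 at 2 h and 0.59 ± 0.30 at 6 h. LOC101268624, JAR1-like, gave 0.14 and 0.38. The JAR1-like entries LOC109118710 and LOC101248762 had nearly the same counts in each library and may share their reads; they gave 1.10 at 2 h and 0.46 and 0.43 at 6 h with overlapping libraries.

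None of 15 other turnover transcripts passed (medians -0.66 and -0.11), the 94B3-like neighbours among them. The list was matched on descriptions alone, and a role of each entry in jasmonate turnover, the 94A ones included, is not established here. Of all transcripts, 0.0464% were called at 2 h and 0.322% at 6 h. At 2 h, 9 of the 15 were lower in both tunicamycin libraries, against 18.8% of all, and 3 higher in both, against 19.0%. At 6 h, 7 were lower in both, against 12.5% of all, and 2 higher in both, against 13.0%. LOC101263557, annotated as 94A2, gave 1.44 ± 0.50 for 1 variant and 1.21 ± 0.47 for another at 2 h. In each, both tunicamycin libraries were above both controls at 2 h and overlapped them at 6 h. The variants may share reads. LOC101246836, 94A1-like, gave -0.91 ± 0.38 at 2 h and -0.55 ± 0.38 at 6 h, with both tunicamycin libraries below both controls each time.

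Of 32 transcripts of perception and signalling, 1 was called lower in tunicamycin leaves at 2 h and 4 at 6 h (medians -0.71 and 0.16). Of all transcripts, 0.0464% and 0.322% were called at these times. All of the list transcripts called were JAZ repressors, which hold jasmonate responses back until the hormone triggers their breakdown. JAZ2 stood at 14.4 and 13.5 CPM in tunicamycin leaves at 2 h, against 57.4 and 114 CPM in control leaves, and at 6.74 and 5.60 CPM in tunicamycin leaves at 6 h, against 41.4 and 52.5 CPM in control leaves (log2 -2.62 ± 0.37 and -2.92 ± 0.38; edgeR, adjusted p = 0.0307 and 0.00992). SLJAZ3 gave -2.49 ± 0.41 at 2 h and -2.29 ± 0.41 at 6 h, where it was called lower in tunicamycin leaves (edgeR, adjusted p = 0.0538 and 0.0343). Both TIFY 5A-like genes were called lower in tunicamycin leaves at 6 h. LOC101252907 had 40 and 24 counts in tunicamycin leaves against 237 and 2389 in control leaves (edgeR, adjusted p = 0.0114). LOC101252609 had 4 and 0 counts against 40 and 611 (edgeR, adjusted p = 0.0189). With 34 and 0 counts in tunicamycin leaves at 2 h, LOC101252609 passed the filter on low counts through the control libraries. Its log2 fold change at 6 h, -6.64 ± 1.10, rests on 4 counts in 1 tunicamycin library. The receptor gene Coi1 gave 0.24 ± 0.41 and -0.26 ± 0.41. MYC2, the main activator of jasmonate responses, gave -0.92 ± 0.38 at 2 h and -0.57 ± 0.38 at 6 h (edgeR, adjusted p = 0.630 and 1.00).

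None of 46 transcripts for wound defence proteins was called at either time (medians 0.50 and 0.07), where 0.0464% and 0.322% of all transcripts were. Polyphenol oxidase F (LOC101259064), whose product oxidises phenolics in damaged leaves, gave -2.18 ± 0.57 at 2 h and -0.59 ± 0.52 at 6 h (edgeR, adjusted p = 0.271 and 1.00). The PPO transcript NM_001347956.1 gave -2.72 ± 0.79 and -1.42 ± 0.74, and the arginase ARG2 variant XM_026028880.1 gave 0.27 ± 0.56 and 1.26 ± 0.55. Between the times in control leaves, and for the effect at 6 h minus that at 2 h, none of the 183 transcripts was called in edgeR, with 19 and 11 at an unadjusted p under 0.05, against 1735 and 761 of the 34483.

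The 4 enzymes were alike in profile to different degrees. Over the 8 libraries, Pearson's r of log2 CPM was 0.962 between loxD and aos, 0.941 between loxD and LOC101263302, 0.91 between aos and LOC101263302, 0.88 between aos and AOC, 0.804 between loxD and AOC and 0.627 between AOC and LOC101263302. The points are the same 8 libraries in each case, with their groups and depths, so these are descriptions without a test. Among 12516 described genes, the profile most like aos was that of the arginine decarboxylase gene ADC (r = 0.991), followed by LOC101251208, a probable methyltransferase (0.985), and LOC101250645, a vacuolar sorting protein (0.984). For loxD the nearest were LOC101247438, a putative glucuronosyltransferase (0.988), LOC101252936, a transmembrane protein (0.988), and LOC101266317, a receptor kinase (0.986), and SLJAZ3 was among the nearest 5 (0.985). LOC101252120, an acyl-CoA thioesterase, was among the nearest 5 of both aos and loxD (0.982 and 0.985). For AOC the nearest were LOC101260241, a UDP-galactose transporter, and LOC101259197 (0.973 each). For LOC101263302 they were LOC101263809, a mitogen-activated protein kinase kinase kinase (0.992), and LOC101264047, a lysine-specific demethylase-like protein (0.988). The other near genes, with r from 0.960 to 0.986, were LOC101266402 for aos, LOC101244718, LOC101244100 and LOC101263038 for AOC, and LOC101263461, LOC101252344 and LOC101255928 for LOC101263302. SLJAZ3 was the 1 gene of the 8 lists among them.

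Markers of other leaf cells were followed beside these results, since AOC is known from vascular bundles in tomato. The 20 vascular marker genes summed to 196 and 166 CPM in tunicamycin leaves at 2 h, against 189 and 318 CPM in control leaves, and to 112 and 219.84 CPM in tunicamycin leaves at 6 h, against 288 and 197 CPM in control leaves. The sums overlapped at both times, but 13 of 22 tested vascular transcripts were lower in both tunicamycin libraries at 2 h (median log2 -1.06), against 18.8% of all transcripts, and 6 of 22 at 6 h (median -0.34), against 12.5% of all. Higher in both were 4 of the 22 at 2 h, against 19.0% of all, and 2 at 6 h, against 13.0%. None of the 22 was called in edgeR. Between 2 and 6 of the 20 genes were at 0 in a library. The part of these markers in the lower enzyme transcripts was not tested. The 71 epidermal genes summed to 461 to 567 CPM in tunicamycin libraries and 351 to 842 CPM in control libraries, and the 19 genes of dividing cells to 544 to 1000.4 CPM and 329.76 to 995 CPM, also overlapping.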

How the data were processed

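RNA of 8 tomato leaf libraries was made with a directional kit, per the labels' protocols. The authors deposited whole-number read counts per RefSeq transcript, and 3 tables of their own comparisons, in which fold changes are on the log2 scale per the file headers. Of the fold changes at 2 h, 1 cell could not be read. The submitters' processing notes name Trimmomatic 0.40. Not given in the sources used here are the aligner, counter, use of strand, build and annotation, so no coordinates or sequences are printed. A RefSeq gene table (SLM_r2.1) matched 94.27% of the transcripts and all 4 genes described.

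The counts were fitted with edgeR 4.0.16 in R 4.3.3: filterByExpr (minimum count 10, minimum total 15; 34483 transcripts of 20279 genes kept), TMM scaling, 1 mean per group over all 8 libraries, and a robust quasi-likelihood test with 4 residual degrees of freedom, two-sided. A transcript was called at a Benjamini-Hochberg adjusted p under 0.05 over all transcripts. The common biological coefficient of variation was 0.353. Errors of log2 fold changes are standard errors, the absolute value over the square root of F. Within-depth values and profiles use log2 CPM with a prior count of 2. Intervals of shares and levels of 3 counts cover counting error only. On simulated data for 2 h over 34483 transcripts the procedure recovered 2.47% of 2-fold, 46.4% of 4-fold and 88.9% of 8-fold changes, with 8 false calls. The changes were placed only in transcripts above a minimum mean abundance, so these rates do not cover sparser ones.

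The members, the lists and the tests were chosen with earlier results of these data known. The genes named are the 4 enzymes, every called gene of the 8 lists and the 2 genes of each list with the smallest p at each time. Named as well are the 5 genes most like each enzyme. HPL, Coi1, MYC2, LOC101262587, LOC101262529 and LOC101246836 were added by hand, chosen after their values were seen. Alternatives were median-of-ratios scaling, a minimum count of 30, no filter, the replicate number or library depth as a term, DESeq2 1.42.0, limma-voom 3.58.1, only the libraries compared, gene sums, 1 transcript per gene, and leaving out each library. The labels share replicate numbers between groups.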

Additional observations from a re-analysis of the deposited data

Results flagged for a closer look

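The JAR1 gene LOC101251682, whose product makes the active jasmonate conjugate, had its 2 tunicamycin libraries on opposite sides of the controls at the 2 times, though neither difference passed. It stood at 15.9 and 18.0 CPM in tunicamycin leaves at 2 h, against 19.9 and 18.4 CPM in control leaves, and at 35.5 and 43.6 CPM in tunicamycin leaves at 6 h, against 23.2 and 29.1 CPM in control leaves. Both tunicamycin libraries were below the controls at 2 h (log2 -0.18 ± 0.31; edgeR, adjusted p = 0.963) and above them at 6 h (0.59 ± 0.30; edgeR, adjusted p = 1.00). The effect at 6 h minus that at 2 h was 0.77 ± 0.43 on the log2 scale and did not pass (edgeR, adjusted p = 1.00).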

How the results depend on the processing

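Of 439 values of the 4 enzymes under the alternatives, 430 kept their sign and stayed within the spread, 6 near 0 changed sign (loxD and aos between the times or in the difference of effects) and 3 of LOC101263302 moved further without tunicamycin 6 h replicate 1. Of 2377 values of list genes 46 lost and 48 gained a call, with no called value reversed. The numbers of list transcripts called were 2 at 2 h, 6 at 6 h, 1 between the times in tunicamycin leaves, 0 in control leaves and 0 for the difference of the effects. In that order they were 20, 12, 13, 6 and 3 of 220 without the low-count filter, whose added transcripts have few counts. Of these, 5, 1, 5, 2 and 3 were higher, and 679, 597, 1229, 371 and 93 of all transcripts were called. DESeq2 called 10, 9, 6, 1 and 0 of 183, against 308, 396, 878, 241 and 0 of all transcripts. All of these DESeq2 calls were lower except 2 between the times in tunicamycin leaves. limma-voom gave 0 at 2 h, against 1 of all transcripts. The libraries compared alone gave 4 at 2 h, 0 at 6 h and 2 between the times in tunicamycin leaves. Over all transcripts they gave 70, 0 and 280. Gene sums gave 0 at 2 h and 0 between the times in tunicamycin leaves, against 1 and 88 of all genes. With 1 transcript per gene, 0 were called between those times, against 133 of all transcripts so chosen. A depth term gave 2 between the times in tunicamycin leaves and 3 in control leaves, against 353 and 125 of all transcripts. Without single libraries the counts ran from 0 to 6, 0 to 7, 0 to 3, 0 to 4 and 0 to 3. With the replicate block the count was 0 at 2 h, 6 at 6 h and 0 between the times in tunicamycin leaves. Over all transcripts the block gave 3, 72 and 169. Same-numbered libraries of different groups correlated between -0.177 and 0.167 in their deviations. Replicate number goes with depth, in opposite ways in tunicamycin and control groups. These values therefore cannot show whether same-numbered libraries share more than a number. The causes were not tested. Depth limits LOC101263302 and its neighbours, which had 0 counts together in tunicamycin 6 h replicate 2.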
